A study of Mus musculus with 8 samples.

Results

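The NF-κB genes described here were the 5 subunits of the transcription factor (*Nfkb1*, *Nfkb2*, *Rel*, *Rela* and *Relb*), 3 inhibitors that it induces (*Nfkbia*, *Nfkbie* and *Tnfaip3*) and 2 nuclear proteins that bind its subunits (*Nfkbiz* and *Bcl3*). They were chosen by name, as a transcription factor arm downstream of the kinase SYK, and made up 10 of the 57010 genes counted. Their transcripts were followed in single cells of mouse kidneys after ischemia-reperfusion injury (IRI), made by clamping the left kidney and releasing it while the right one was left in place. All animals were C57BL/6 mice, and their age was not given in the sources used here. Of 7 conditions, 1 was untouched kidney (control), 3 were injured kidneys taken 1, 7 or 14 days after IRI from mice given vehicle (DMSO, as the study's methods state), and 3 were taken on the same days from mice given the SYK inhibitor entospletinib. Cells of 3 mice were pooled for each condition and sorted by FACS, with a viability dye and a scatter gate to enrich leukocytes. The pooled cells were divided into 8 sublibraries, each with cells of all conditions. The SD given with a value is always over those 8 and measures technical error alone, and single conditions, with 1 pool each, could not be tested against each other.

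NF-κB works as dimers of its subunits. In resting cells most dimers are held in the cytoplasm by IκB proteins such as IκBα (*Nfkbia*) and IκBε (*Nfkbie*), and receptors for microbial products, cytokines or immune complexes release them by having the inhibitor degraded. The canonical arm runs through RelA, c-Rel (*Rel*) and p50 (from *Nfkb1*), and the noncanonical arm through RelB and p52 (from *Nfkb2*). Several of the genes switched on encode brakes on the same pathway, so their transcripts are often read as a sign of its recent activity. Some receptors of myeloid cells reach NF-κB through SYK, by way of CARD9, BCL10 and MALT1.

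The subunit genes were annotated (GRCm38, GENCODE M21) with *Nfkb1* (ENSMUSG00000028163) at chr3:135584655-135691547 on the minus strand, *Nfkb2* (ENSMUSG00000025225) at chr19:46304320-46312385 on the plus strand, *Rel* (ENSMUSG00000020275) at chr11:23736847-23770970 on the minus strand, *Rela* (ENSMUSG00000024927) at chr19:5637483-5648130 on the plus strand and *Relb* (ENSMUSG00000002983) at chr7:19606217-19629438 on the minus strand. The inhibitors were *Nfkbia* (ENSMUSG00000021025) at chr12:55489410-55492647 on the minus strand, *Nfkbie* (ENSMUSG00000023947) at chr17:45555703-45563169 on the plus strand and *Tnfaip3* (ENSMUSG00000019850) at chr10:19000910-19015657 on the minus strand, and the nuclear cofactors *Nfkbiz* (ENSMUSG00000035356) at chr16:55811375-55838899 on the minus strand and *Bcl3* (ENSMUSG00000053175) at chr7:19808462-19822770 on the minus strand. *Nfkb1* overlaps *Gm43430* on the same strand, so reads in that stretch could belong to either. *Nfkb2* overlaps *Psd* and another gene on the opposite strand, and *Bcl3* overlaps *Gm16174* and *Gm16175*, so reads of these pairs could be split only by strand.

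NF-κB binds short κB sites in DNA, and several of its own genes are known targets. RefSeq promoter windows (GRCm38.p6) were at hand for 7 of the 10 genes, and not for *Nfkb1*, *Relb* and *Nfkbiz*. In the 250 bases before each start, the 10-base κB consensus motif was searched on both strands, with overlapping matches allowed. The 7 genes have 10 such windows, and 7 of the 10 held a match. These belong to 5 genes, namely *Nfkb2*, *Rel*, *Nfkbia*, *Nfkbie* and *Tnfaip3*, and the windows of *Rela* and *Bcl3* held none. Of all 32851 windows of this length, 3.90% held a match, and 0.493% held 2 or more. Stretches with a match are shown to print the letters found. Whether the motif goes with a gene's response was not tested. Capitals mark the matches, and stretches that overlap an exon in GENCODE are cut short.

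*Nfkbia*, chr12:55492648-55492696, minus strand: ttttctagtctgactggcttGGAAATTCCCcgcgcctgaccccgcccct
*Nfkbie*, chr17:45555574-45555623, plus strand: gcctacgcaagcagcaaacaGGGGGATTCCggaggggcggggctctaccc
*Rel*, chr11:23771031-23771081, minus strand: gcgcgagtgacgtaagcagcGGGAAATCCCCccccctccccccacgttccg
*Tnfaip3*, chr10:19015517-19015544, minus strand: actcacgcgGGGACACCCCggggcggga
*Tnfaip3*, chr10:19015411-19015431, minus strand: atttccatcGGAAATCCCCct
*Nfkb2*, chr19:46304689-46304717, plus strand: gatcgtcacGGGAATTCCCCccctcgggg
*Nfkb2*, chr19:46304717-46304736, plus strand: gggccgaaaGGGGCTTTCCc

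The 11 capitals in *Rel* and in the first stretch of *Nfkb2* are 2 overlapping matches. The *Nfkbia* match began at position -29 from its start and the *Nfkbie* match at -106. *Tnfaip3* had a second start without a match, and *Nfkb2* had 2 later starts with 1 match each, which are not printed. A match is a description of the letters and no evidence that a factor was bound there.

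Of 120281 barcodes, 79389 (66.0%) were kept as cells, at a median of 2343 counts a cell and 25798505 to 32821488 counts a sublibrary. All 10 genes were found in these cells, with 12703 counts for *Rela* up to 157072 for *Nfkbiz*. Cells were clustered without these genes or the pathway lists used below, so their levels did not form the clusters, though *Relb* was among the 100 leading genes of Ccr7 dendritic-like cells, *Nfkbia* and *Tnfaip3* of 1 neutrophil-like cluster, and *Tnfaip3* of basophil or mast cell-like cells. Classes were named from markers. Endothelial-like and proximal tubule-like cells were present in spite of the gate for leukocytes. A level is the gene's share of all counts summed in the class, on the CPM scale. Since it sums over cells, fewer cells with a transcript and less of it in each cell cannot be told apart. Differences between classes are a description, with no test.

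Among the subunits, *Nfkb1* was highest in Ccr7 dendritic-like cells (1193 ± 279.6 CPM) and cDC2-like cells (1150.2 ± 41.5 CPM), whose ranges over the sublibraries overlapped. Of the larger classes it then stood at 945 ± 37.0 CPM in neutrophil-like, 776 ± 82.8 CPM in T cell-like, 699 ± 39.5 CPM in monocyte-like and 493 ± 15.6 CPM in macrophage-like cells. The lowest levels were 237 ± 7.87 CPM in endothelial-like and 128 ± 30.6 CPM in proximal tubule-like cells. *Rel*, which encodes c-Rel, a subunit largely of blood cells, followed a steeper order. It stood at 1489 ± 123 CPM in Ccr7 dendritic-like, 809 ± 59.0 CPM in cDC2-like, 634 ± 48.9 CPM in B cell-like and 444 ± 22.1 CPM in monocyte-like cells, with no overlap between these neighbours. Macrophage-like cells had 246 ± 6.65 CPM, endothelial-like cells 61.4 ± 7.55 CPM and proximal tubule-like cells 39.0 ± 10.5 CPM.

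*Relb*, the noncanonical subunit, set Ccr7 dendritic-like cells apart most clearly. These cells, which have the profile of dendritic cells that migrate to lymph nodes, held 1188 ± 194 CPM, against 224 ± 13.5 CPM in neutrophil-like and 161 ± 13.4 CPM in cDC2-like cells. Its partner *Nfkb2* was also highest there, at 254 ± 62.5 CPM, ahead of neutrophil-like cells at 172 ± 10.3 CPM. *Rela* varied least. It lay at 79.7 ± 25.9 CPM in Ccr7 dendritic-like and 79.7 ± 4.35 CPM in neutrophil-like cells, and between 47.0 and 58.8 CPM in 8 classes from T cell-like to cDC2-like cells, each of which overlapped its neighbour.

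The inhibitors and nuclear cofactors were highest in granulocytes. *Nfkbia* stood at 1893 ± 46.6 CPM in neutrophil-like cells, 677 ± 132 CPM in Ccr7 dendritic-like, 499 ± 23.8 CPM in cDC2-like, 445 ± 12.1 CPM in monocyte-like and 238 ± 10.9 CPM in macrophage-like cells. *Tnfaip3*, which encodes the ubiquitin-editing enzyme A20, had 905 ± 27.3 CPM in neutrophil-like, 440.0 ± 39.4 CPM in T cell-like and 175 ± 13.1 CPM in macrophage-like cells. *Nfkbie* ran from 186 ± 17.3 CPM in neutrophil-like and 156 ± 10.5 CPM in cDC2-like cells, which overlapped, to 13.1 ± 4.05 CPM in proximal tubule-like cells. *Bcl3* was likewise highest in neutrophil-like cells (192 ± 9.09 CPM), and *Nfkbiz*, the gene of IκBζ, stood at 1768 ± 55.4 CPM there and at 743 ± 26.7 CPM in macrophage-like cells. The 77 basophil or mast cell-like cells gave the highest *Nfkbia* (1899 ± 811 CPM), *Nfkbiz* (2163 ± 747 CPM) and *Tnfaip3* (2193 ± 712 CPM), with wide spreads. *Nfkbia* and *Nfkbiz* in those cells overlapped neutrophil-like cells, and *Tnfaip3* did not.

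**Figure D1:**
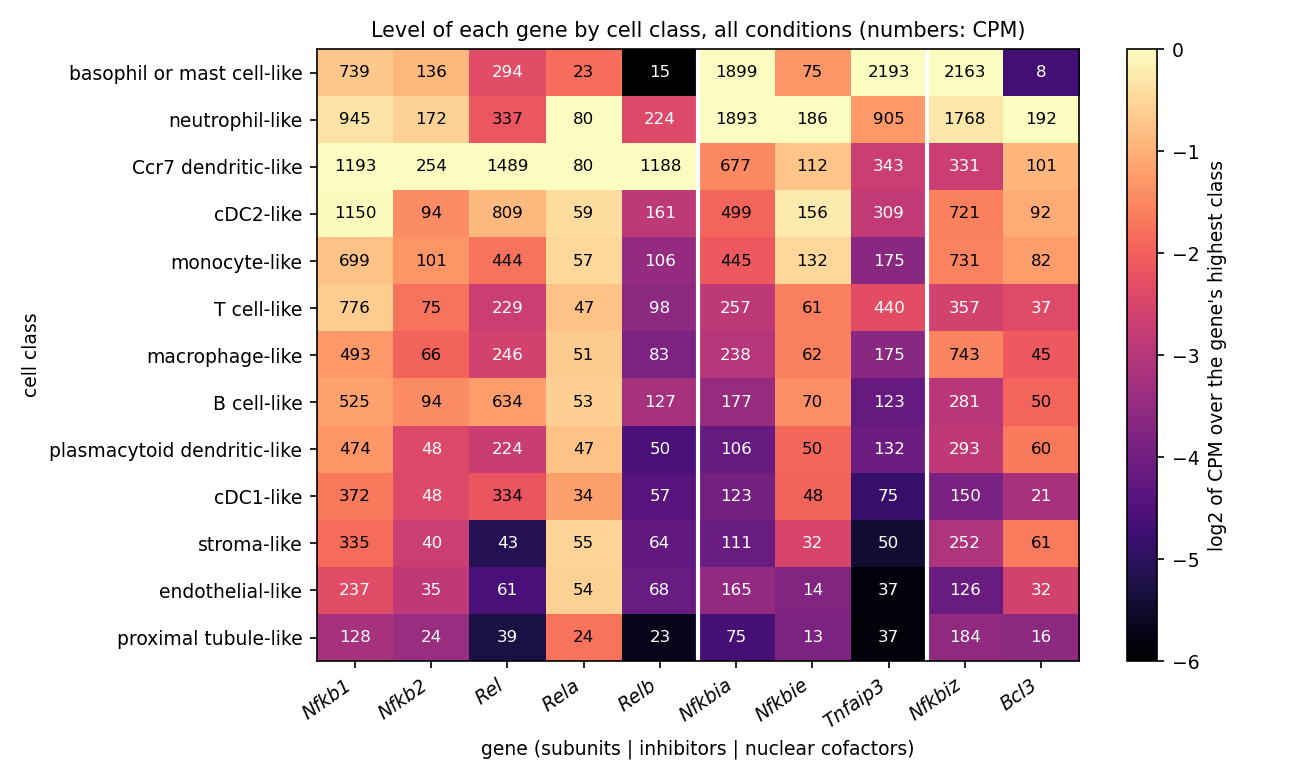
Heat map of the level of each gene (columns) in each named cell class (rows), with the CPM over all conditions printed in each cell and the color giving the log2 of that level over the gene's highest class. *Relb* is high in Ccr7 dendritic-like cells, *Nfkbia*, *Nfkbiz* and *Tnfaip3* are high in basophil or mast cell-like and neutrophil-like cells, and *Rela* is the most even column.

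With each cell thinned to 500 counts, *Nfkbia* was detected in 48.7% of neutrophil-like cells, 9.63% of macrophage-like cells and 3.63% of proximal tubule-like cells, the class taken as background. Without thinning these shares were 67.2%, 29.6% and 14.9%, at median depths of 1354, 2318 and 2616 counts. *Rel* was detected in 44.1% of thinned Ccr7 dendritic-like cells, 10.8% of macrophage-like and 1.29% of proximal tubule-like cells.

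The course after injury was first followed in macrophage-like cells, the class with the most cells in all (3968 from uninjured kidneys, 2108, 1729 and 7172 from the vehicle pools of days 1, 7 and 14, and 2388, 2370 and 4082 from the entospletinib pools). Ratios between conditions are given as log2 and relative to their median over the 6033 genes that averaged 20 CPM or more in this class. A ratio is called past the size rule when it is at least 0.58 in size and has 1 direction in all 8 sublibraries. The rule describes these pools and is no test. The 3 vehicle days share the control pool, and each entospletinib ratio shares its vehicle pool with the comparison against the control.

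In vehicle-treated mice 2 of the 3 inhibitors and both nuclear cofactors were higher at day 1, and both noncanonical subunits were higher at days 7 and 14, at day 7 only after centring on all genes. At day 1, 4 of the 10 genes were higher by the rule (*Nfkbia*, *Tnfaip3*, *Nfkbiz* and *Bcl3*), against 15.9% of all genes, and none was lower, against 14.6%. Within clusters *Tnfaip3* (0.34) and *Nfkbiz* (0.39) fell short of the rule at day 1, and *Tnfaip3* was at 0.09 with classes from each cell's markers. Without centring on all genes *Nfkb2* was above the size limit at day 1 as well (0.62). With vehicle *Nfkb2* stood at 62.5 CPM at day 1 and 54.9 CPM at day 7, and *Relb* at 78.0 and 74.6 CPM. At day 7, 5 of 10 were higher (*Nfkb2*, *Relb*, *Nfkbia*, *Tnfaip3* and *Bcl3*), against 6.23% of all genes, and none was lower, against 3.48%. Without centring on all genes *Bcl3* (0.69) alone stayed above the size limit at day 7, with *Nfkb2* at 0.43, *Relb* at 0.39, *Nfkbia* at 0.55 and *Tnfaip3* just under it, and within clusters *Relb* was at 0.55. At day 14, 7 of 10 were higher (*Nfkb2*, *Rel*, *Relb*, *Nfkbia*, *Nfkbie*, *Tnfaip3* and *Bcl3*), against 7.84%, and none was lower, against 4.29%. *Rel* was at 0.54 without centring that day. The median of the 10 ratios was 0.36, 0.53 and 0.95 on the 3 days (SD 0.14, 0.21 and 0.11), where that of all genes is 0 by construction. The median of the 10 was 0.54 at day 1 and 0.28 at day 7 without centring, and 0.23 at day 1 within clusters. With called doublets removed, 4, 3 and 6 genes were higher, against 15.4%, 5.85% and 7.60% of all genes, without *Nfkb2* and *Tnfaip3* at day 7 and *Rel* at day 14.

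With entospletinib several of these genes were lower than with vehicle on the later days. At day 1 none of the 10 was past the rule, against 1.43% of all genes lower. At day 7, *Tnfaip3* and *Bcl3* were lower, against 3.53%. *Tnfaip3* was no longer past the limit of size that day without centring (-0.52) or with classes from each cell's markers (-0.45), and *Bcl3* stayed past it. At day 14, 6 of 10 were lower (*Nfkb1*, *Rel*, *Relb*, *Nfkbie*, *Tnfaip3* and *Bcl3*), against 5.44%. *Nfkb1* was at -0.55 without centring and -0.57 within clusters that day. None of the 10 was higher on any day, against 1.46%, 1.24% and 3.6% of all genes at days 1, 7 and 14. Over the 10 genes the median ratio was -0.21, -0.46 and -0.68 on the 3 days (SD 0.19, 0.13 and 0.12). The day-1 median was 0.089 with classes from the markers of each cell and -0.017 within clusters, and the day-7 median was -0.14 without centring on all genes. The counts of 0, 2 and 6 were the same with called doublets removed, against 1.13%, 2.96% and 4.82% of all genes lower.

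Of the canonical subunits, *Nfkb1* in macrophage-like cells stood at 411 ± 17.1 CPM in uninjured kidneys, at 540.1 ± 22.0 CPM (day 1), 439 ± 36.5 CPM (day 7) and 588 ± 51.2 CPM (day 14) under vehicle, and at 474 ± 40.3, 431 ± 25.7 and 402 ± 39.3 CPM under entospletinib on those days. It was highest at day 14 with vehicle, whose sublibraries (490.2 to 667 CPM) did not overlap those of entospletinib (344 to 473 CPM). The day-14 ratio of entospletinib over vehicle was -0.64 (95% counting interval -0.72 to -0.57, SD 0.15 over the sublibraries), or 1.56-fold lower relative to all genes.

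*Rel* in macrophage-like cells stood at 225 ± 25.9 CPM in uninjured kidneys, at 234 ± 24.8 CPM (day 1), 219 ± 19.9 CPM (day 7) and 327 ± 22.1 CPM (day 14) under vehicle, and at 163 ± 22.5, 199 ± 21.0 and 189 ± 26.4 CPM under entospletinib on those days. It stayed near the control with vehicle at days 1 and 7 and was higher at day 14, with a relative ratio of 0.61 (SD 0.17). With entospletinib it lay below vehicle in all 8 sublibraries on each day by relative ratio, with ratios of -0.42 (SD 0.18), -0.45 (SD 0.21) and -0.89 (95% counting interval -1.0 to -0.78, SD 0.29 over the sublibraries). *Rela*, by contrast, stood at 50.1 ± 3.17 CPM in uninjured kidneys, at 49.9 ± 7.23 CPM (day 1), 38.6 ± 4.41 CPM (day 7) and 53.8 ± 6.94 CPM (day 14) under vehicle, and at 56.5 ± 5.47, 48.3 ± 7.18 and 54.2 ± 15.7 CPM under entospletinib on those days. Its levels overlapped between vehicle and entospletinib on each day, and no *Rela* ratio was past the rule in either comparison.

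The noncanonical pair was higher with vehicle, and only *Relb* of the pair was past the rule with the drug. *Relb* in macrophage-like cells stood at 57.0 ± 5.34 CPM in uninjured kidneys, at 78.0 ± 12.6 CPM (day 1), 74.6 ± 11.1 CPM (day 7) and 116 ± 9.60 CPM (day 14) under vehicle, and at 74.8 ± 13.1, 63.8 ± 12.3 and 75.1 ± 13.1 CPM under entospletinib on those days. Its ratio over control at day 14 was 1.1 (95% counting interval 0.97 to 1.22, SD 0.18 over the sublibraries), or 2.14-fold relative to all genes, and entospletinib over vehicle gave -0.73 (SD 0.31) that day. *Nfkb2* stood at 40.8 ± 5.25 CPM in uninjured kidneys, at 62.5 ± 5.66 CPM (day 1), 54.9 ± 8.18 CPM (day 7) and 88.7 ± 6.28 CPM (day 14) under vehicle, and at 65.4 ± 14.3, 55.1 ± 7.21 and 73.2 ± 13.6 CPM under entospletinib on those days. Relative to all genes it was 2.27-fold higher than control at day 14 with vehicle (1.18, SD 0.17). The ratio of entospletinib over vehicle was -0.37 (SD 0.25) that day, with 1 of 8 sublibraries in the other direction, and was not past the rule. Whether *Relb* and *Nfkb2* differed in this was not tested.

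*Nfkbia* was higher than control on all 3 vehicle days in macrophage-like cells. It stood at 139 ± 8.10 CPM in uninjured kidneys, at 419 ± 49.4 CPM (day 1), 203 ± 33.6 CPM (day 7) and 243 ± 12.7 CPM (day 14) under vehicle, and at 309 ± 46.1, 161 ± 24.5 and 227 ± 24.9 CPM under entospletinib on those days. Relative to all genes, vehicle over control at day 1 was 2.66-fold, a ratio of 1.41 (95% counting interval 1.33 to 1.5, SD 0.19 over the sublibraries), and the level at day 7 was lower but above the control in all 8 sublibraries. With entospletinib *Nfkbia* at day 14 had a ratio over vehicle of -0.19 (95% counting interval -0.30 to -0.09, SD 0.17 over the sublibraries), so that it was the one inhibitor of the 3 not past the rule that day. Over the alternatives this ratio ran from -0.46 to -0.09. At day 7 it was -0.65 within clusters and -0.33 without centring on all genes, and was not past the rule in the main values.

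*Tnfaip3* in macrophage-like cells stood at 104 ± 15.9 CPM in uninjured kidneys, at 203 ± 31.2 CPM (day 1), 155 ± 29.1 CPM (day 7) and 258 ± 26.5 CPM (day 14) under vehicle, and at 131 ± 19.9, 108 ± 25.9 and 143 ± 14.7 CPM under entospletinib on those days. All vehicle values were above the control, and the day-14 sublibraries with vehicle (223 to 312 CPM) did not overlap those with entospletinib (124 to 163 CPM). Entospletinib over vehicle gave -0.53 (SD 0.25) at day 1, which was -0.09 within clusters and 0.12 with classes from each cell's markers. It gave -0.83 (SD 0.41) at day 7 and -0.95 (95% counting interval -1.07 to -0.82, SD 0.21 over the sublibraries) at day 14. *Nfkbie*, whose protein holds c-Rel and RelA dimers, stood at 47.2 ± 6.30 CPM in uninjured kidneys, at 52.8 ± 9.57 CPM (day 1), 52.9 ± 11.7 CPM (day 7) and 91.5 ± 15.7 CPM (day 14) under vehicle, and at 37.1 ± 4.20, 47.6 ± 8.02 and 58.9 ± 9.05 CPM under entospletinib on those days. It came up late, with a ratio over control of 1.02 (SD 0.40) at day 14, when entospletinib over vehicle was -0.73 (SD 0.38).

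*Bcl3*, an IκB family member that joins p50 or p52 dimers in the nucleus, had large day-14 ratios in both comparisons. With cells thinned to 500 counts its day-14 ratio of vehicle over control was 1.34, below the 1.48 of *Tnfaip3*. In macrophage-like cells it stood at 24.3 ± 4.42 CPM in uninjured kidneys, at 47.6 ± 5.81 CPM (day 1), 39.2 ± 9.57 CPM (day 7) and 68.1 ± 11.5 CPM (day 14) under vehicle, and at 48.6 ± 14.2, 23.9 ± 1.74 and 28.7 ± 7.60 CPM under entospletinib on those days. Vehicle over control was 1.55 (95% counting interval 1.37 to 1.73, SD 0.41 over the sublibraries), and entospletinib over vehicle was -1.34 (95% counting interval -1.62 to -1.07, SD 0.52 over the sublibraries), or 2.53-fold lower relative to all genes. *Nfkbiz* stood at 585 ± 46.9 CPM in uninjured kidneys, at 1119.8 ± 44.4 CPM (day 1), 629 ± 91.8 CPM (day 7) and 765 ± 28.1 CPM (day 14) under vehicle, and at 815 ± 82.3, 669 ± 78.2 and 550.1 ± 27.3 CPM under entospletinib on those days. It was highest at day 1 with vehicle, at a ratio of 0.76 (SD 0.15) over control. At day 14 entospletinib was below vehicle in all 8 sublibraries at -0.57 (SD 0.08), just inside the limit of size.

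**Figure D2:**
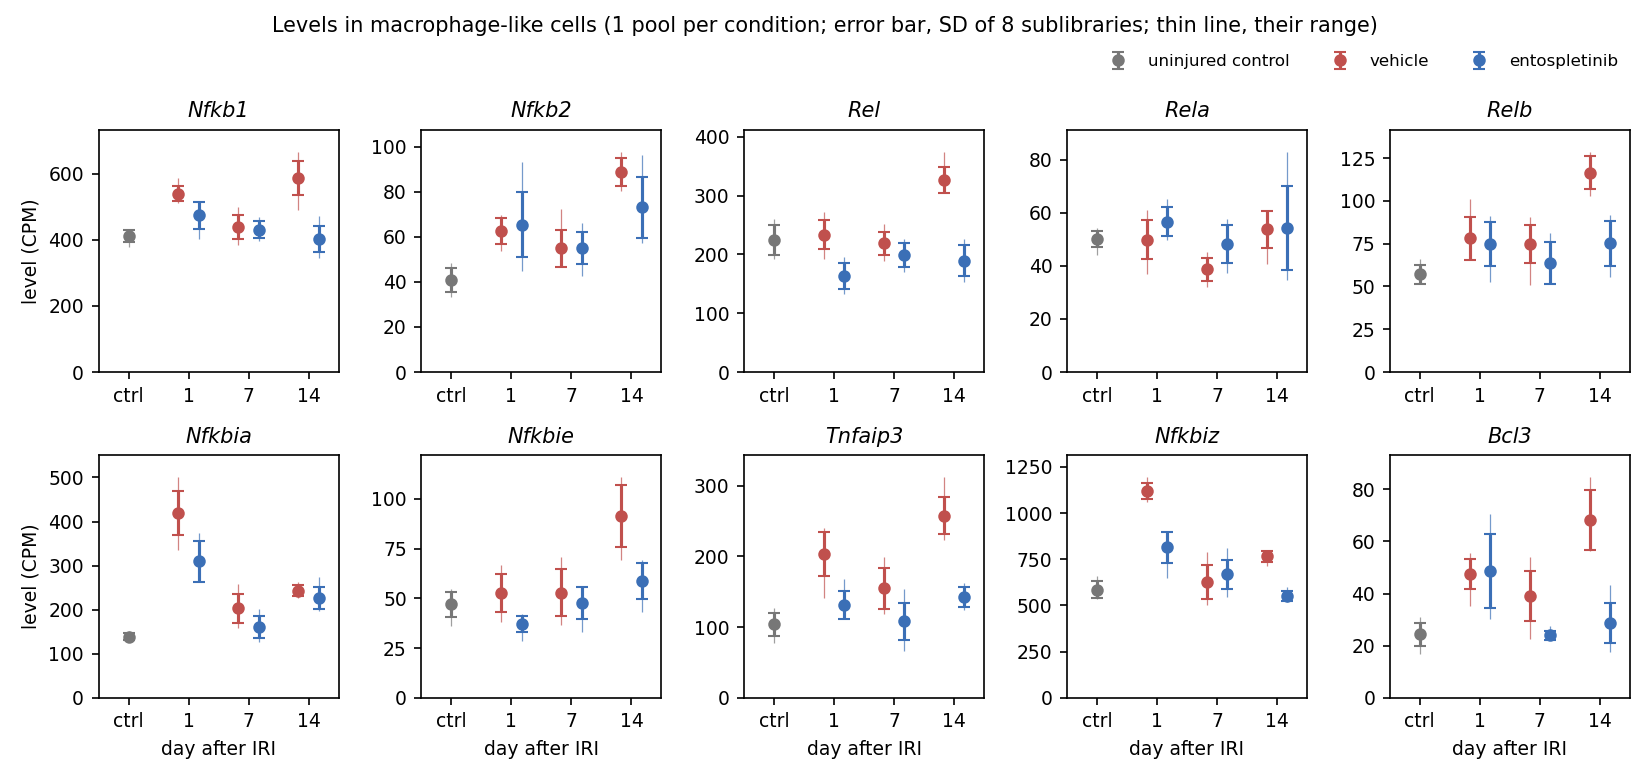
Level in CPM of each gene in macrophage-like cells by day after IRI, with gray for the control, red for vehicle and blue for entospletinib. Points are the pooled value of 1 pool, error bars the SD and thin lines the range of its 8 sublibraries. The vehicle point of *Tnfaip3* at day 14 (258 CPM) lies above every other condition, while the points of *Rela* lie between 38.6 and 56.5 CPM.

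**Figure D3:**
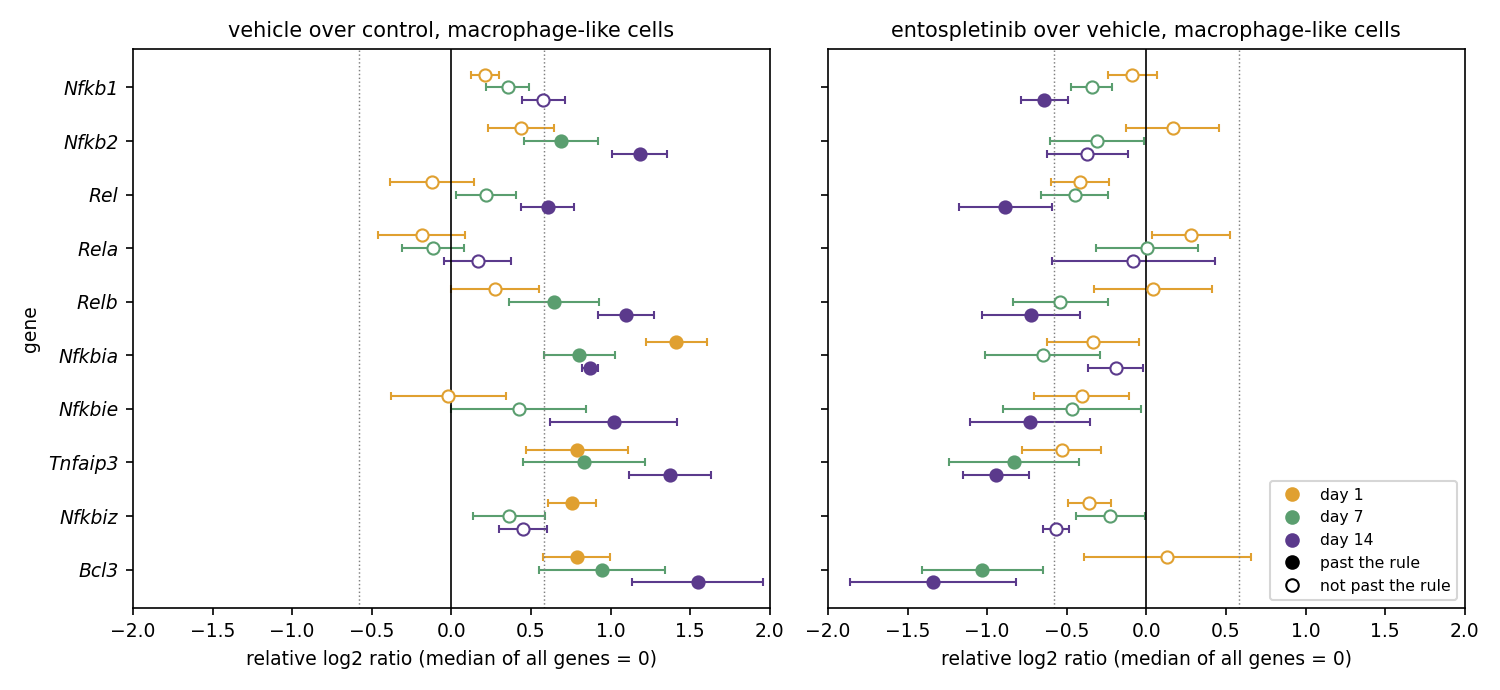
Relative log2 ratios in macrophage-like cells, vehicle over control on the left and entospletinib over vehicle on the right, by day. Error bars are the SD of 8 sublibraries, filled points are past the size rule and dotted lines mark 0.58. At day 14, 7 points on the left lie past the rule to the right, and 6 points on the right lie past it to the left.

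Depth, doublets and the filter on cells differed between the pools. Macrophage-like cells of the day-14 entospletinib pool had a median of 862 counts, against 2432 with vehicle, and 0.22% of them were called doublets, against 8.13%. Thinned to 500 counts, the day-14 ratio of entospletinib over vehicle was -0.88 for *Rel*, -0.83 for *Tnfaip3* and -1.56 for *Bcl3*, and with doublets removed -0.85, -0.82 and -1.33. The limit on ribosomal protein transcripts removed 29.0% and 24% of cells in the entospletinib pools of days 1 and 14, against 4.23% to 12.1% in the other pools. Scaling mattered at day 7, when the median of all genes was 0.32 higher with entospletinib than with vehicle before it was subtracted. Without that step the day-7 ratio was -0.52 for *Tnfaip3*, -0.71 for *Bcl3*, -0.03 for *Nfkb1* and 0.01 for *Nfkb2*.

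Neutrophil transcripts in macrophage-like cells also differed between the pools. Summed over 9 markers, and as a share of their level in neutrophil-like cells of all conditions, they came to 0.748% in uninjured kidneys, 3.19% (day 1), 1.54% (day 7) and 1.87% (day 14) under vehicle, and 2.03%, 0.858% and 0.904% under entospletinib. None of the 9 was at 0 in any pool. Taken at that share, the *Tnfaip3* of neutrophil-like cells amounted to 16.9 of the 258 CPM in macrophage-like cells with vehicle at day 14, and to 8.18 of the 143 CPM with entospletinib. With those amounts subtracted for every gene, the day-14 ratio of entospletinib over vehicle was -0.95 for *Tnfaip3* and -0.90 for *Rel*, and the day-1 ratio of vehicle over control was 1.38 for *Nfkbia*.

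The class held 4 clusters, and their shares changed with condition. At day 1, cluster 7, led by *Mmp12*, *Nes* and *Col14a1* and with 31.8% of its cells called doublets, held 1555 of 2108 vehicle cells, and cluster 0, led by *Slco2b1* and *Agmo*, held 1096 of 2388 entospletinib cells. The day-1 ratio of *Nfkbia*, vehicle over control, was larger in cluster 7 (1.64) than in clusters 0, 8 and 10 (0.75, 0.90 and 0.68), a difference that was not tested. At day 14 the ratios of entospletinib over vehicle were below 0 for *Rel*, *Tnfaip3* and *Bcl3* in clusters 0, 8 and 10, the 3 with at least 50 cells in both conditions. In that order they were -0.80, -1.15 and -0.64 for *Rel*, -0.65, -1.11 and -1.1 for *Tnfaip3*, and -1.26, -1.64 and -1.53 for *Bcl3*.

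Entospletinib was compared with vehicle over all 3 days at once, in a test where the pools of each day form a pair. Its error is how far the drug's effect differed between days. In macrophage-like cells, *Tnfaip3* fell by 0.80 ± 0.12 (log2 fold change ± SE), with an adjusted p of 0.00178 in edgeR's quasi-likelihood test. *Rel* fell by 0.62 ± 0.13 (edgeR, adjusted p = 0.0142) and *Nfkbie* by 0.57 ± 0.12 (edgeR, adjusted p = 0.0153). These 3 of the 10 genes passed, against 2.62% of 13372 genes tested. Each of the 3 genes had a lower level with entospletinib than with vehicle on all 3 days. *Bcl3* (-0.75 ± 0.20, edgeR adjusted p = 0.0649), *Nfkbia* (-0.42 ± 0.12, 0.0786), *Relb* (-0.44 ± 0.14, 0.103), *Nfkbiz* (-0.42 ± 0.13, 0.114) and *Nfkb1* (-0.39 ± 0.13, 0.147) did not pass, nor did *Nfkb2* (-0.20 ± 0.12) and *Rela* (0.04 ± 0.12). With doublets removed 1.55% of genes passed, and of the 10 only *Tnfaip3* (edgeR adjusted p = 0.0184, against 0.0529 for *Rel* and 0.138 for *Nfkbie*). With library sizes alone in place of TMM, 2.62% of genes passed, of the 10 *Tnfaip3* (0.0287) and *Bcl3* (0.0353), while *Rel* (0.223) and *Nfkbie* (0.234) did not. Without the pools of day 14, *Tnfaip3* alone passed (edgeR adjusted p = 0.00428), and without the pools of day 1, *Tnfaip3*, *Rel*, *Nfkbie*, *Relb* and *Bcl3* passed. Without the pools of day 7, *Tnfaip3* (0.0134) and *Rel* (0.0307) passed. Of all genes 2.37%, 1.65% and 1.66% passed without the pools of days 1, 7 and 14.

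In the other classes tested none of the 10 genes passed in edgeR. In monocyte-like cells, where 2.05% of genes passed, 5 of the 10 had an unadjusted p under 0.05, against 15.8% of all genes, and 10 of 10 fold changes were below 0. *Nfkbie* came nearest (-0.86 ± 0.22, edgeR adjusted p = 0.0761), followed by *Tnfaip3* (-0.75 ± 0.21, 0.11) and *Nfkb1* (-0.70 ± 0.20, 0.119). DESeq2's Wald test called these 3 in monocyte-like cells, where it called 3.37% of all genes, and none in neutrophil-like, cDC2-like or endothelial-like cells, where it called 0.126%, 0.190% and 0.285%. In neutrophil-like cells 0.422% of genes passed, 3 of the 10 had an unadjusted p under 0.05, against 5.98% of all genes, and *Nfkb1* gave -1.1 ± 0.31 (edgeR adjusted p = 0.0767), with 41 cells in the smallest pool. In cDC2-like cells 0.838% of genes passed and 2 of the 10 were under 0.05 unadjusted, against 11% of all genes, *Nfkb1* (-0.46 ± 0.15) and *Rel* (-0.38 ± 0.15). In endothelial-like cells, a class with little *Syk* (79.9 CPM, against 458 in macrophage-like cells), 0% of genes passed in edgeR, 1155 (9.67%) had an unadjusted p under 0.05 and DESeq2 called 34, and 5 of the 10 were under 0.05 unadjusted. With doublets removed that count was 1, a gene not lower with the drug, and the median fold change of the 10 was -0.08 in place of -0.43. Macrophage markers in endothelial-like cells came to 16.1% of their own level in the day-14 vehicle pool and 6.91% in the entospletinib pool. Differences between classes in the drug's effect were not tested.

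**Figure D4:**
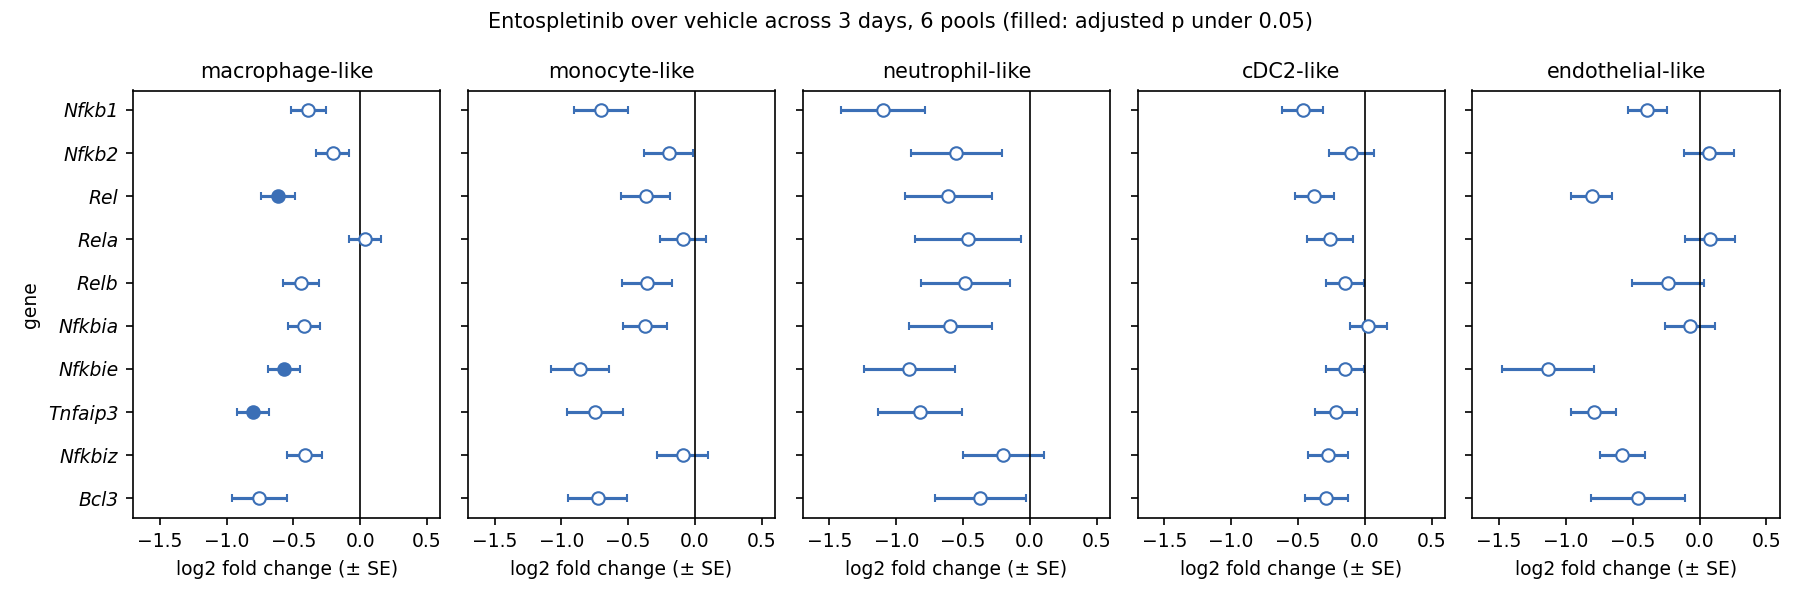
Log2 fold change of entospletinib over vehicle across the 3 days in each of 5 cell classes, from edgeR on 6 pools, with the SE as error bars. Filled points have an adjusted p under 0.05. Only *Rel*, *Nfkbie* and *Tnfaip3* in macrophage-like cells are filled, and 9 of the 10 points in that panel lie below 0.

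Monocyte-like cells were many at day 1 and few in the control (342 cells). *Nfkb1* in these cells stood at 545 ± 108 CPM in uninjured kidneys, at 685 ± 41.0 CPM (day 1), 923 ± 114 CPM (day 7) and 1026 ± 105 CPM (day 14) under vehicle, and at 546 ± 36.2, 688 ± 176 and 521 ± 108 CPM under entospletinib on those days. The sublibraries of vehicle and entospletinib overlapped at day 7 and not at days 1 and 14. *Nfkbie* stood at 114 ± 31.0 CPM in uninjured kidneys, at 132 ± 8.99 CPM (day 1), 149 ± 27.1 CPM (day 7) and 222 ± 30.4 CPM (day 14) under vehicle, and at 100.1 ± 17, 99.3 ± 30.7 and 88.5 ± 21.0 CPM under entospletinib on those days. *Tnfaip3* stood at 174 ± 37.7 CPM in uninjured kidneys, at 168 ± 6.51 CPM (day 1), 203 ± 36.5 CPM (day 7) and 353 ± 50.2 CPM (day 14) under vehicle, and at 120.5 ± 16.4, 182 ± 78.9 and 144 ± 81.2 CPM under entospletinib on those days. For both genes the day-14 vehicle pool was the highest of the 7. Against the control, *Rel* alone was past the rule at day 1, on the low side (-0.89, SD 0.45), where 14.1% of genes were past it in either direction. At day 7, *Nfkb1*, *Nfkbia* and *Nfkbie* were higher and *Nfkbiz* was lower (-0.68, SD 0.31), against 20.1%. At day 14, *Nfkb1*, *Relb*, *Nfkbie*, *Tnfaip3* and *Bcl3* were higher, against 11% of genes.

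Entospletinib over vehicle in monocyte-like cells had no gene of the 10 past the rule at day 1, against 4.53% of genes lower. At day 7, 5 were lower (*Nfkb1*, *Relb*, *Nfkbia*, *Nfkbie* and *Bcl3*), against 8.89%. The median of all genes was 0.39 higher with entospletinib that day before it was subtracted, a step that lowers each of these ratios. At day 14, 3 were lower, against 5.68%. These were *Nfkb1* (-1.06, SD 0.37), *Nfkbie* (-1.41, SD 0.43) and *Tnfaip3* (-1.37, SD 0.71). With doublets removed, *Nfkbiz* at day 7 was no longer past the rule against the control, nor *Nfkbia* at day 7 against vehicle, where 8.21% of genes were lower. As a share of their level in macrophage-like cells of all conditions, the 10 macrophage markers summed to 66.7% in the vehicle pool at day 14 and to 33.9% in the entospletinib pool. The part of this in the ratios was not tested. The class joins 2 clusters, whose values are a description with no background share and no test between them. Past the rule at day 14 in cluster 3, led by *Ace* and *Treml4*, were *Nfkbie* (-1.28) and *Tnfaip3* (-0.64). Past it in cluster 5, with *Fn1* and *Vcan* among its leading genes, were *Nfkb1* (-1.06), *Nfkb2* (-1.42), *Rel* (-1.28) and *Nfkbiz* (-1.14).

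Neutrophil-like cells could be compared only with vehicle, since the control held 65 of them. At day 1, with 7814 and 2171 cells, 4 of the 10 genes were lower with entospletinib, against 5.24% of genes. *Tnfaip3* stood at 904 ± 30.9 CPM with vehicle and 407 ± 81.1 CPM with entospletinib, a ratio of -1.08 (95% counting interval -1.17 to -1.0, SD 0.32 over the sublibraries). *Nfkb1* stood at 887 ± 22.9 and 508 ± 36.6 CPM, *Nfkbia* at 2064 ± 64.8 and 1223 ± 113 CPM, and *Nfkbie* at 171 ± 13.8 and 97.8 ± 14.0 CPM. The sublibraries of the 2 conditions did not overlap for these 4 genes, which were already past the rule. The share of all genes without overlap was not counted, so this is a description of these values alone. Of the 2 neutrophil clusters, cluster 1, led by *Csf1* and *Il1a*, gave -1.05 for *Tnfaip3* and -0.82 for *Nfkb1*, and cluster 4, led by *Retnlg* and *S100a9*, gave -0.68 and -0.49. At day 7 the entospletinib pool held 118 neutrophil-like cells, and *Nfkb2* and *Nfkbie* were lower, against 3.96% of genes.

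In cDC2-like cells *Nfkb1* was past the rule against the control on each vehicle day, from 664 ± 61.0 CPM in the control to 1189 ± 146, 1206 ± 182 and 1328 ± 76.3 CPM. *Tnfaip3* was lower at day 1 (-0.84, SD 0.34), and *Relb*, *Nfkbie* and *Bcl3* were higher at day 14. The background over all genes was 14.1%, 8.62% and 11.3% at days 1, 7 and 14 in either direction. With entospletinib none of the 10 was past the rule at day 1 or 7, against 1.25% and 1.66% of genes lower, and *Tnfaip3* alone was lower at day 14 (-0.73, SD 0.21), against 1.94%. With doublets removed, *Relb* was also higher than control at day 7, against 4.90% of genes, and *Nfkb1* lower with entospletinib at day 14, against 1.78%. As a share of their level in neutrophil-like cells of all conditions, the 9 neutrophil markers in cDC2-like cells summed to 2.41% in uninjured kidneys, to 8.04% under vehicle (day 1) and to 3.40% under entospletinib (day 1). The 10 macrophage markers, as a share of their level in macrophage-like cells of all conditions, summed to 14.7% in uninjured kidneys, to 25.2% under vehicle (day 14) and to 16.7% under entospletinib (day 14). Their part in these ratios was not tested.

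In T cell-like cells, which held less *Syk* than macrophage-like cells (205 CPM), *Relb*, *Nfkbia* and *Nfkbie* were higher than control on each vehicle day. The counts of genes higher were 4, 4 and 5 at days 1, 7 and 14, against 3.08%, 1.78% and 4.49% of genes. *Relb* stood at 46.0 ± 11.0 CPM in the control and at 159 ± 49.8, 96.9 ± 28.9 and 115 ± 19.0 CPM with vehicle. With entospletinib none was lower at days 1 and 7 (0.486% and 1.02% of genes), and 5 were lower at day 14 (*Nfkb2*, *Rel*, *Nfkbiz*, *Nfkbie* and *Tnfaip3*, against 4.81%). Neutrophil markers in these cells came to 0.565% of their own level in the control and to 4.68%, 1.78% and 2.06% with vehicle at days 1, 7 and 14, and their part in the ratios was not tested. Macrophage markers summed in these cells to 21.7% of their own level in the day-14 vehicle pool and to 8.32% in the entospletinib pool. With doublets removed, *Rel* and *Tnfaip3* alone were lower at day 14, against 1.84% of genes, and *Nfkb2*, *Rel* and *Relb* were higher than control that day, against 2.47%. *Nfkbia* was then higher at day 1 alone and *Nfkbie* at days 1 and 7, against 1.89% and 1.44% of genes on those 2 days.

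In B cell-like cells at day 14, *Nfkbia* and *Bcl3* were higher with vehicle than in the control, against 2.07% of genes, and *Rel*, *Nfkbiz* and *Tnfaip3* were lower with entospletinib than with vehicle, against 3.46%. With doublets removed, *Tnfaip3* alone was higher, against 0.622% of genes, and *Rel* alone was lower, against 1.05%. Macrophage markers summed there to 26.8% and 12.9% of their own level with vehicle and entospletinib. In endothelial-like cells, 9 of the 10 genes reached 20 CPM. *Bcl3* was higher than control on each vehicle day, joined by *Nfkbiz* at days 1 and 14, against 4.8%, 1.27% and 3.4% of genes. Entospletinib over vehicle gave *Relb* higher and *Tnfaip3* lower at day 1 (2.26% of genes in either direction), *Relb* lower at day 7 (1.94%) and none at day 14 (6.27%). With doublets removed, *Bcl3* was higher than control at days 1 and 14 alone, against 3.82% and 2.08% of genes, and *Nfkbiz* on no day. Entospletinib over vehicle then gave *Relb* and *Bcl3* higher at day 1, against 1.58% of genes, and none past the rule at day 7. At day 14 *Nfkbia* and *Bcl3* were past the rule in opposite directions, against 2.75% of genes higher and 2.31% lower.

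**Figure D5:**
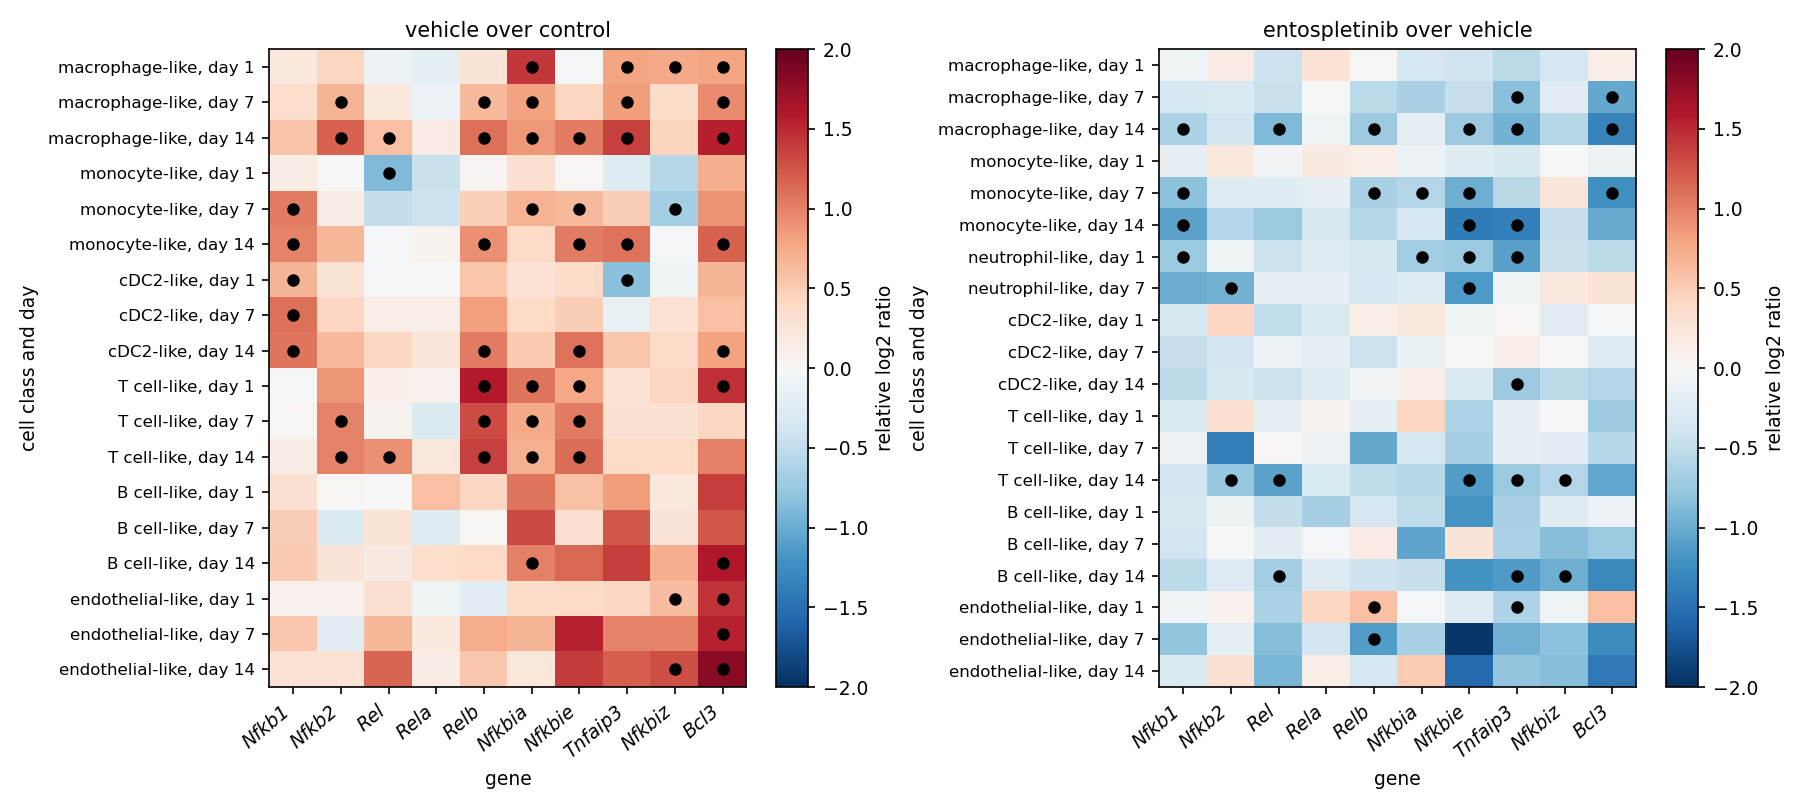
Relative log2 ratios of the 10 genes by cell class and day, vehicle over control on the left and entospletinib over vehicle on the right, red for higher and blue for lower, with dots for ratios past the size rule. The rows for entospletinib at day 1 carry no dot in macrophage-like, monocyte-like, cDC2-like, T cell-like and B cell-like cells and 4 dots in neutrophil-like cells.

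The rest of the pathway in macrophage-like cells was counted from lists of named genes. Of 24 target genes, 18 reached 20 CPM. With vehicle 15, 10 and 12 of these were higher than control at days 1, 7 and 14, with list medians of 1.51, 0.83 and 0.99. With entospletinib 4, 7 and 8 were lower than with vehicle, with medians of -0.33, -0.59 and -0.53, and *Ccl4* was higher at day 7. Of all genes in this class, 15.9%, 6.23% and 7.84% were higher than control with vehicle on those days and 14.6%, 3.48% and 4.29% lower. With entospletinib 1.43%, 3.53% and 5.44% were lower than with vehicle and 1.46%, 1.24% and 3.6% higher. Genes are named by the size of their mean ratio, and others, such as *Ccl4*, *Irak1*, *Irak3*, *Birc2*, *Cyld*, *Itch*, *Tnip1*, *Atf3*, *Fosb*, *Jund* and *Hspa1b*, only to spell out a small count after their values were seen. *Ptgs2*, the gene of cyclooxygenase 2, had the largest mean ratio in size, at -1.05, -2.11 and -1.42, followed by *Acod1*, the gene of the enzyme that makes itaconate, at -1.0, -1.88 and -1.17. *Gadd45b* gave -0.48, -1.72 and -1.46. These genes were picked by these same ratios. *Acod1* and *Gadd45b* stood under 20 CPM in the control (10.7 and 10.0 CPM) and with entospletinib at day 7 (12.6 and 13.6 CPM). They reached the limit, a mean over the conditions, through other pools. *Acod1* is among the 10 leading genes of neutrophil-like cluster 1, and neutrophil markers in macrophage-like cells were lower with entospletinib than with vehicle on each day, as given above. With neutrophil RNA subtracted in the same way, an alternative added after seeing the data, *Acod1* had no ratio left, since in each comparison at least 1 pool came to 0. Of the other 17 targets, 14, 9 and 11 were then higher with vehicle, against 15.7%, 6.03% and 7.58% of genes, and 4, 5 and 7 lower with entospletinib, against 1.39%, 3.2% and 5.19%. *Ptgs2* then gave -1.8, -2.82 and -1.57 for entospletinib over vehicle.

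Upstream genes were counted in the same way. Of 15 measured kinases and adaptors, 1 was higher than control on each vehicle day (*Irak1* at day 1 and *Malt1* at days 7 and 14). Of all genes 15.9%, 6.23% and 7.84% were higher on those days. With entospletinib 1, 1 and 0 were lower (*Tab3* at day 1 and *Card9* at day 7), against 1.43%, 3.53% and 5.44% of all genes. Of 7 genes of the noncanonical arm, *Cd40*, a receptor of that arm, was higher with vehicle at days 7 and 14 (1.48 and 1.82) and lower with entospletinib (-0.86 and -0.83). *Birc2* was lower with vehicle at day 1, and *Birc3* was higher with vehicle at day 14 (1.09) and lower with entospletinib at day 7 (-0.64). Of 13 other inhibitors and brakes, 3, 0 and 5 were higher with vehicle and 3, 0 and 0 lower, against 14.6% of all genes lower at day 1, the 3 being *Cyld*, *Itch* and *Tnip1*. With entospletinib 1, 1 and 3 were lower. *Nfkbid*, another IκB family gene, was lower on each of the 3 days (-0.79, -0.73 and -0.87), and *Zc3h12a*, the gene of the RNase Regnase-1, was lower at day 14 (-1.06), as was *Irak3*. *Tnip1* was higher at day 1.

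*Syk* itself stood in macrophage-like cells at 478 CPM in uninjured kidneys, at 365 CPM (day 1), 435 CPM (day 7) and 535 CPM (day 14) under vehicle, and at 329.7, 440.2 and 469 CPM under entospletinib. An inhibitor of the kinase's activity need not alter its transcript, so this checks no label. Of the 8 genes of the SYK arm, *Card9* was lower at day 7 and *Fcer1g* higher at day 14 with entospletinib. Genes that tissue digestion can induce also differed between the pools. Of these 16 genes, 8, 6 and 9 were higher than control with vehicle at days 1, 7 and 14, and *Fosb* and *Jund* were lower at day 1. With entospletinib 1, 7 and 4 were lower than with vehicle (*Atf3* at day 1), while *Jund* was higher at days 1 and 14 and *Hspa1b* at day 14. They summed to 3805 CPM in uninjured kidneys, 6169 CPM (day 1), 4168 CPM (day 7) and 4909.6 CPM (day 14) under vehicle, and 4870.0, 4055 and 4589.7 CPM under entospletinib. At day 14 the ratio of entospletinib over vehicle was -1.18 for *Egr1*, -0.98 for *Nr4a1* and -1.03 for *Btg2*. Kidneys were digested at 37 °C, and the part of this step in the ratios of the NF-κB genes was not tested.

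Across 74 sums of a class and a condition with at least 100 cells, the genes most like *Nfkb1*, *Rel*, *Relb* and *Nfkbia* were found by Pearson's r of log2(CPM + 1), as a description of points that share libraries. *Nfkb1* was followed most closely by *Arf4* (0.91), *Gpr132* (0.91) and *Traf1* (0.90), and *Rel* by *Myo1g* (0.92), *Gpr132* (0.92) and *Syk* (0.91). *Relb* was most like *Birc3* (0.84), *Cd274* (0.83) and *Pde4b* (0.83), and *Nfkbia* most like *Il1b* (0.91), *Pim1* (0.91) and *Cass4* (0.91). Within the 10 genes the closest pairs were *Nfkb1* with *Nfkbie* (0.91) and with *Tnfaip3* (0.90), and *Nfkb2* with *Relb* (0.89), and the least alike were *Rel* and *Rela* (0.55).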

How the data were processed

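Transcripts were counted in single cells of mouse kidney with split-pool barcoding, in 8 sublibraries that each held cells of all 7 conditions. The authors deposited 1 matrix of unnormalised transcript counts (57010 genes by 120281 barcodes, mm10), made with the Parse pipeline, with a table that gives the condition of each cell. Cells with at least 300 genes, at most 20000 counts, 25% mitochondrial and 1.5% ribosomal protein counts were kept. Of 105340 barcode well combinations, 13712 occurred in more than 1 sublibrary and were treated as different cells.

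Cells were clustered (Leiden, leidenalg 0.10.2, resolution 1, 40 components of 4000 genes) without the 10 genes and the pathway lists, and a cluster took the name of the class with most markers among its 100 leading genes, counting those found in 10% or more of its cells, when these were at least 3 and its 10 leading genes held at most 1 marker of another class. Clusters that failed this stayed unnamed. Doublets, scored by the share of simulated doublets among 30 neighbours, made up 8.76% of cells and stayed in the main values. Counts were summed per class, condition and sublibrary. Counting intervals are exact Poisson 95% intervals and cover counting error only. Ratios were taken only where both conditions held at least 100 cells of the class.

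Treatment was tested with edgeR 4.0.16 (R 4.3.3, quasi-likelihood, TMM, Benjamini-Hochberg adjustment over all genes, threshold 0.05) on the 6 injured pools with day as a block, with DESeq2 1.42.0 as an alternative. On simulated data for macrophage-like cells with 13173 genes, 72.6% of changes of 1 on the log2 scale and 100% of changes of 2 were recovered. Those data had 1 dispersion for all genes and the same drug effect on each day, so the shares may not hold for the real pools. The changes of the 10 genes in this class were all smaller than 1, a size that was not simulated. The 10 genes are always named. Of other pathway lists, up to 3 genes each were named by the largest mean ratio of entospletinib over vehicle in macrophage-like cells. The genes and lists were chosen with earlier results of these data known. The alternatives covered scaling, filters, depth, doublets, class definition, pools and sublibraries left out.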

Additional observations from a re-analysis of the deposited data

Results flagged for a closer look

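No sublibrary stood apart from the other 7 for any of the 10 genes. In 4 comparisons all 8 sublibraries of one class or day moved one way and all 8 of another moved the opposite way. These differences were not tested, and the sublibraries are portions of the same pools.

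*Tnfaip3* with vehicle at day 1 was above the control in macrophage-like cells (relative log2 ratio 0.79) and endothelial-like cells (0.42) and below it in cDC2-like cells (-0.84). Within cDC2-like cells, *Tnfaip3* with vehicle was below the control at day 1 (-0.84) and above it at day 14 (0.55). *Nfkbia* with entospletinib at day 14 was above vehicle in endothelial-like cells (0.51) and below it in T cell-like cells (-0.57). *Relb* in endothelial-like cells was higher with entospletinib than with vehicle at day 1 (0.61) and lower at day 7 (-1.12).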

How the results depend on the processing

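Of 1080 recomputed single-gene ratios of macrophage-like cells, 1032 moved by less than the spread between sublibraries and 48 moved by more. None changed sign among called values. The 1080 include the runs with each sublibrary left out. Leaving out a sublibrary can hardly move a pooled ratio by the spread between sublibraries. The count of 1032 is therefore partly set in advance and is no measure of how stable the ratios were. The median ratio over the 10 genes was 0.36, 0.53 and 0.95 for vehicle over control at days 1, 7 and 14, and -0.21, -0.46 and -0.68 for entospletinib over vehicle. With doublets removed the day-1 median of entospletinib over vehicle was -0.13. Without centring on all genes it was 0.54 at day 1 and 0.28 at day 7 for vehicle over control, and -0.14 at day 7 for entospletinib over vehicle. With classes taken from the markers of each cell it was 0.76 at day 7 and 1.08 at day 14 for vehicle over control, and 0.089 at day 1, of the opposite sign, and -0.89 at day 14 for entospletinib over vehicle. As a mean within macrophage-like clusters it was 0.23 for vehicle over control and -0.017 for entospletinib over vehicle at day 1. With each sublibrary left out it ranged from 0.32 to 0.39, 0.48 to 0.59 and 0.91 to 0.98 for vehicle over control at days 1, 7 and 14, and from -0.24 to -0.18, -0.48 to -0.39 and -0.71 to -0.62 for entospletinib over vehicle. The cause of these shifts was not tested.

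The treatment test in macrophage-like cells called 0 of the 10 genes without the day block, where it called 0 of 12852 genes in all (517 at an unadjusted p under 0.05), and 1 with doublets removed (1.55% of all genes). In monocyte-like cells it called 3 with DESeq2 (3.37%) and 4 with no filter on low counts (2.56%), and in endothelial-like cells 1 with library sizes alone (1.01%) and 3 with no filter (0.929%). With the pools of 1 day left out it called 1 to 5 genes in macrophage-like cells (1.65% to 2.37% of all genes), 0 to 1 in monocyte-like (0.741% to 3.16%) and neutrophil-like cells (0.253% to 0.828%), 0 to 4 in endothelial-like cells (0.00795% to 2.13%, the 4 without day 1) and 0 in cDC2-like cells (0.125% to 1.23%). Subtracting neutrophil RNA, for the 10 genes and for the target genes, and removing doublets in the classes other than macrophage-like cells, were alternatives chosen after seeing the data. In the day-14 entospletinib pool depth was lowest, at a median of 960 counts a cell.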
